A study of Mus musculus with 14 samples.

Results

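Spleen cells of 7 WT mice and 7 Sting gt/gt mice were compared for the RNA of 9 genes that define the programmes of helper and regulatory T cells, namely Tbx21, Gata3, Foxp3, Ifng, Il17a, Il4, Il2ra, Ctla4 and Icos. They were chosen by name, as the probes whose accession RefSeq gives to these symbols, and each of the 9 was matched by 1 probe, out of 22911 genes with a symbol on the array. All mice were C57BL/6 and had received chicken type II collagen (CII) in complete Freund's adjuvant (CFA) 2 weeks before the spleen was taken. Their age is given as 10 to 14 weeks, which in the paper is the age when arthritis was induced. Both groups were therefore immunized, and no array of unimmunized mice was analysed here. The gt allele, golden ticket, was made by chemical mutagenesis on C57BL/6 and leaves no STING protein that a western blot can see. It is present in every cell of the mouse. The Sting gt/gt mice came from another laboratory and the WT mice were purchased, so the source of the mice and the genotype cannot be told apart. The paper also states that mice were bred and kept in the authors' facility. Each mouse had 1 one-colour Agilent array.

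A naive CD4+ T cell that meets antigen can take one of several fates, each held by a lineage-defining transcription factor and marked by its cytokines. T-bet, encoded by Tbx21, drives the Th1 fate and IFN-γ (Ifng). GATA3 drives the Th2 fate and IL-4, Th17 cells secrete IL-17A, and Foxp3 holds the regulatory T cell (Treg) fate. Il2ra encodes CD25, the high-affinity chain of the IL-2 receptor, and Ctla4 encodes an inhibitory receptor of the CD28 family, both carried at high levels by Treg cells. Icos encodes an activating receptor of the same family that follicular helper T cells (Tfh) need to help B cells. Several of these genes are also used outside CD4+ T cells. NK cells express Tbx21 and Ifng, and basophils and mast cells express Il4. In whole splenocytes, fewer cells of a type and less RNA per cell cannot be told apart.

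The promoters of 5 members are shown because Il4 had the largest genotype difference of the measured members and because Tbx21, Gata3, Foxp3 and Ctla4 varied together from mouse to mouse, as described further on. The sequences are those of RefSeq (build GRCm38.p6), from 250 bases before to 50 after the transcription start, written 5′ to 3′ on the gene's strand. Il4 and Foxp3 have 2 starts each in this source, and the upstream start is shown. Capitals mark GGAAA or its reverse complement TTTCC, the core letters that NFAT factors, the calcium-activated factors of T cells, recognise.
Il4, chr11:53618616-53618915, minus strand: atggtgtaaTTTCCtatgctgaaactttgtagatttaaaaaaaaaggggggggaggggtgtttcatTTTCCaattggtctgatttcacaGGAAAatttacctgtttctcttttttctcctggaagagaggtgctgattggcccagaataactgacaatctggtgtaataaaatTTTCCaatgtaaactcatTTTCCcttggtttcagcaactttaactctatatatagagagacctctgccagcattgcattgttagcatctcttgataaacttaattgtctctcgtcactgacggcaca
Foxp3, chrX:7579426-7579725, plus strand: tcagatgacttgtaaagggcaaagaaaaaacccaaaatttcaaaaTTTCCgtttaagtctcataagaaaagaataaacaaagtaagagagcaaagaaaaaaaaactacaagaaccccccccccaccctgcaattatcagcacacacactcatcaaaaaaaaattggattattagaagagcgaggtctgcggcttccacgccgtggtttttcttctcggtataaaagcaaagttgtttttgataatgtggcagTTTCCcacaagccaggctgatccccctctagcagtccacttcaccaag
Tbx21, chr11:97115282-97115581, minus strand: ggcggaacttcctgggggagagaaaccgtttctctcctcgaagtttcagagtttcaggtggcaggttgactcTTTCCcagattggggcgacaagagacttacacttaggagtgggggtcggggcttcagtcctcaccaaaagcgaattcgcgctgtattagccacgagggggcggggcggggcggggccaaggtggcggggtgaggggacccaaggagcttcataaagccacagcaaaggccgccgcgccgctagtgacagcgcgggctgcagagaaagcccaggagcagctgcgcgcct
Gata3, chr2:9878551-9878850, minus strand: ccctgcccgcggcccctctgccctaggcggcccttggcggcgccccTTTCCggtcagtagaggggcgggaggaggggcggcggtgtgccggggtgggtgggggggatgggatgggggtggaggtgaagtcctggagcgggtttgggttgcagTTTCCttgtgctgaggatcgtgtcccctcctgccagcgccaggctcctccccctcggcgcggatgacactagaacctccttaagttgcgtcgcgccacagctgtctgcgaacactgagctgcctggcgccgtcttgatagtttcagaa
Ctla4, chr1:60908775-60909074, plus strand: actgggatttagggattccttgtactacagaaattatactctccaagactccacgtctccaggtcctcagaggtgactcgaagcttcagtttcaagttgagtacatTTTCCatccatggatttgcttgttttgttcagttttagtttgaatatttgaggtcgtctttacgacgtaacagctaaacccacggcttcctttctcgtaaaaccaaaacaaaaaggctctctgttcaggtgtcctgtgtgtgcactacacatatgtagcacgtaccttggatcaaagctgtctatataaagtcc
The Il4 window holds this core 5 times, Foxp3 and Gata3 hold it 2 times each, and Tbx21 and Ctla4 hold it once. The second start of Il4 and that of Foxp3, not shown, hold it once each. Of 32851 RefSeq promoters of the same length, 61.3% hold the core at least once on either strand and 0.728% hold it 5 or more times. This source has 10 promoters of 8 members, among them Il17a, and none of Icos. Of these 10, 9 hold the core, and that of Il17a does not. The letters TATAAA stand in 4 of these 10 and in 13.6% of all promoters, while AGATAA, which GATA3 can recognise, stands in 1 of 10 and in 11.2%. TCACAC, which T-box factors such as T-bet can recognise, stands in 1 of 10, that of Il17a, and in 14.5%. No one of the 4 motifs contains another, and both strands were searched. The matches describe the letters of these windows only.

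Levels are given as the log2 of the processed signal minus the 75th percentile of the same array, so that 0 is the level of a probe brighter than 75% of the probes on its array. That percentile lay between 562 and 766 signal units on the 14 arrays, and 30781 to 34400 of 56605 probes were well above background. The arrays were scanned on 2 days, replicates 1-3 of both genotypes on scan day 1 and replicates 4-7 on scan day 2. Scan day moved much of the array, with 12389 of 31766 tested probes (39%) different at an adjusted p under 0.05 between the days (limma). On day 2 the WT and Sting gt/gt arrays also sat on different slides, so slide and genotype cannot be told apart there. Markers of spleen were present, where the B cell list averaged 2.24 to 3.10, the macrophage list 3.30 to 3.75 and the T cell list 0.82 to 1.38 on this scale over all 14 arrays.

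The probes of 7 members, namely Tbx21, Gata3, Foxp3, Ifng, Il4, Il2ra and Icos, were well above background on 14 of 14 arrays. That of Ctla4 was so on 9 of 14, namely 5 WT and 4 Sting gt/gt arrays, and 7 of these 9 came from scan day 2. Il17a was not well above background on any array, with a processed signal of 3.86 to 6.73 units, so it has only an upper bound in both genotypes and no fold change is given. Ctla4 is kept below with this limit.

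**Figure D1:**
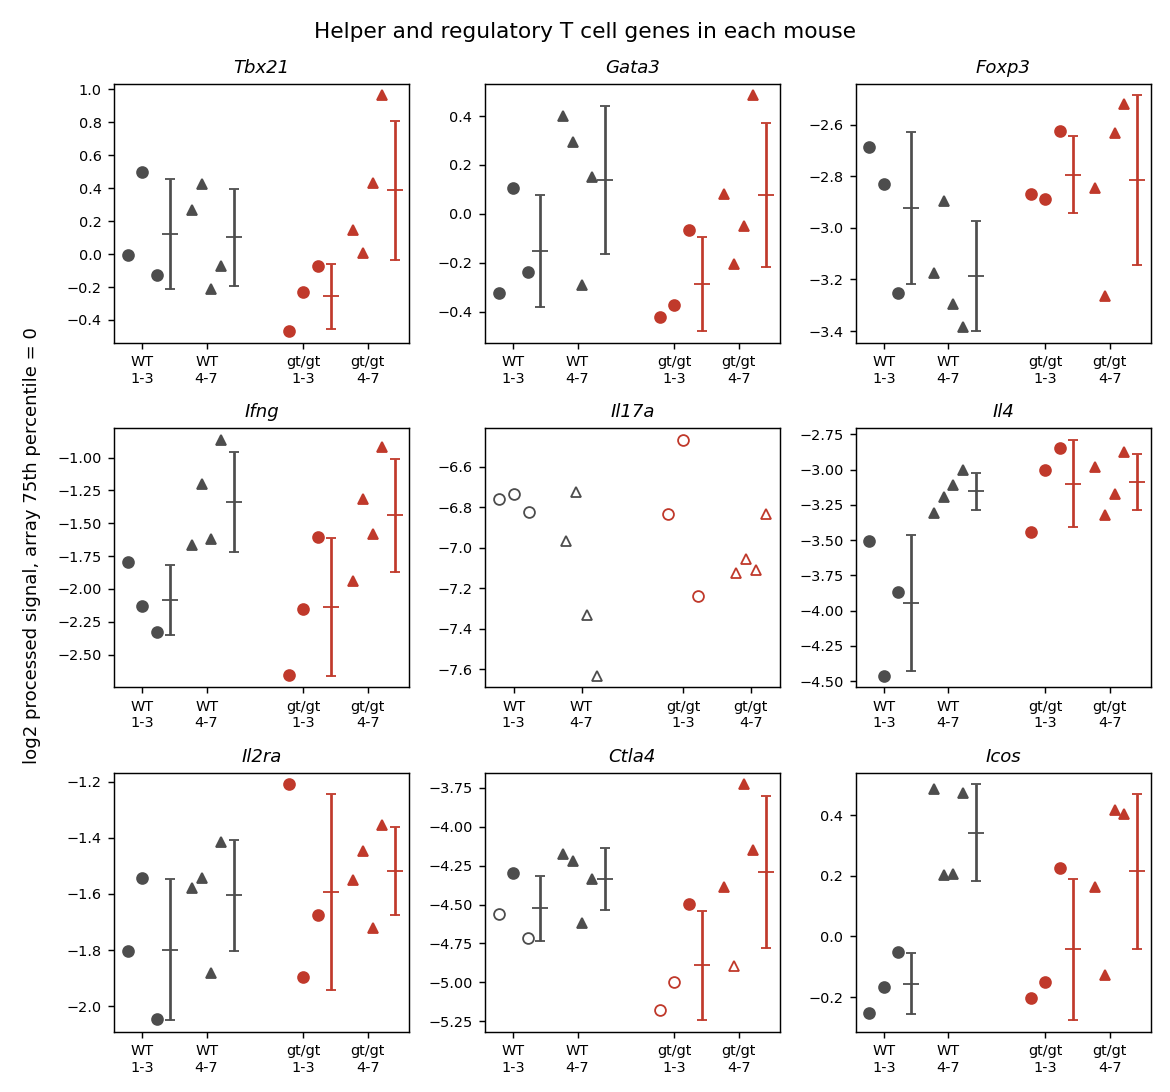
Each panel gives 1 gene in each of the 14 mice, as log2 processed signal with the 75th percentile of the array at 0 (y axis, a different range in each panel), for WT (grey) and Sting gt/gt (red) and for replicates 1-3 (circles, scan day 1) and 4-7 (triangles, scan day 2). Open symbols were not well above background, and bars give mean ± SD of each set of 3 or 4 mice, left out for Il17a, which has open symbols throughout. The WT and Sting gt/gt points overlap in every panel, and Il4 in WT replicates 1-3 lies below the other Il4 points.

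No member passed the test between genotypes. At an unadjusted p under 0.05, 0 of the 8 tested members were called, beside 3.43% of all tested probes (1091 of 31766, limma). Those 1091 were 561 higher and 530 lower with the gt/gt genotype, against 300 and 704 with median centring, 179 and 805 without scaling and 655 and 373 with normexp, another background correction. After Benjamini-Hochberg adjustment over all probes, the adjusted p was 1.0 for each of the 8, and 1 probe in all passed (0.00315%). No member had WT and Sting gt/gt arrays that did not overlap, which held for 0.0472% of all probes. The members with the largest differences were Il4 and Foxp3, both higher in Sting gt/gt mice, and both with an interval that included 0.

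Among the transcription factors, Tbx21 had the smallest genotype difference of all members. In WT mice its level was -0.21 at the lowest, -0.01 at the median and 0.50 at the highest. In Sting gt/gt mice it was -0.47, 0.01 and 0.96. The groups overlapped, with 3 of 7 Sting gt/gt mice outside the WT range, and the highest mouse was Sting gt/gt replicate 7. The log2 fold change was 0.00 (95% interval -0.42 to 0.42, limma), which in folds runs from 0.749 to 1.34. Gata3 ran from -0.32 to 0.40 in WT mice (median 0.11), and from -0.42 to 0.48 in the Sting gt/gt group (median -0.07). Of the Sting gt/gt mice, 1 of 7 lay above the WT median. The means differed by -0.09 (SE 0.16, interval -0.43 to 0.24), less than the SD of 0.30 among WT mice.

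Foxp3, the factor of Treg cells, was measured at -3.38 at the lowest, -3.17 at the median and -2.69 at the highest in WT mice. In Sting gt/gt mice it was measured at -3.26, -2.84 and -2.52. In units of processed signal these were 61.6 to 106 on the WT arrays and 71.0 to 113 on the Sting gt/gt arrays. The groups overlapped, with 6 of 7 Sting gt/gt mice above the WT median and the Sting gt/gt mouse the higher in 38 of 49 pairs. The mean was higher by 0.27 (SE 0.14, interval -0.03 to 0.57, limma unadjusted p = 0.0750), that is 1.20-fold (0.979 to 1.48). A two-sided exact permutation test over the 3432 ways to part the arrays gave p = 0.0775. The 1 low Sting gt/gt mouse was replicate 5, and without it the difference was 0.34 (limma unadjusted p = 0.0202). Without WT replicate 1, the highest WT mouse, it was 0.33 (unadjusted p = 0.0305). Without WT replicate 7 or Sting gt/gt replicate 7 it was 0.22 (unadjusted p = 0.151 and 0.147), the lower end of the 14 leave-outs, which reached 0.34. With normexp it was 0.16 (limma unadjusted p = 0.165) and with slide as a fixed block 0.0911 (limma unadjusted p = 0.687).

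Among the cytokines, Ifng had an SD between mice of 0.50 in WT and 0.57 in Sting gt/gt mice. It ran from -2.33 to -0.86 in WT mice (median -1.66), and from -2.65 to -0.92 in the Sting gt/gt group (median -1.60). The ranges lay almost on top of each other, and the mean differed by -0.08 (SE 0.26, interval -0.64 to 0.48). In each genotype the lowest mouse was of scan day 1 and the highest of scan day 2. NK cell markers were read beside it, since NK cells also secrete IFN-γ. All 10 of them had a positive log2 fold change, with a median of 0.12, and 0 of 10 passed the test, while 9088 of 14729 genes with a symbol were positive too. The median of the 10 was 0.30 in replicates 1-3 and 0.01 in replicates 4-7. The list averaged -0.93 to 0.01 on the WT arrays and -0.61 to 0.52 on the Sting gt/gt arrays, and its part in the level of Ifng was not tested.

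Il4 had the largest genotype difference of the tested members. In WT mice its level was -4.46 at the lowest, -3.31 at the median and -3.0 at the highest, and in Sting gt/gt mice -3.45, -3.0 and -2.85. The processed signal was 32.6 to 95.5 units on the WT arrays and 60.6 to 93.4 on the Sting gt/gt arrays. Of the Sting gt/gt mice, 4 of 7 lay above the highest WT mouse, 1 of them by less than 0.01, and the other 3 lay within the WT range. The 3 lowest of all 14 were WT replicates 1, 2 and 3. The mean was higher in Sting gt/gt mice by 0.40 (SE 0.20, interval -0.03 to 0.83, limma unadjusted p = 0.0643), that is 1.32-fold (0.982 to 1.77), with the Sting gt/gt mouse the higher in 39 of 49 pairs. The exact permutation test gave p = 0.0728, and p = 0.05 when genotypes were permuted within scan days (1400 ways). Without WT replicate 2, the lowest mouse, the difference was 0.24. It was also 0.24 with array weights (limma unadjusted p = 0.166), and 0.18 with normexp (limma unadjusted p = 0.0997). With scan day as a block the difference stayed at 0.40 by construction and its unadjusted p was 0.0364, beside 7.32% of all probes called in that fit, with an adjusted p of 0.677.

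The Il4 difference was 0.85 in replicates 1-3 and 0.07 in replicates 4-7. On scan day 1 the WT levels were -3.50, -4.46 and -3.87 in replicates 1, 2 and 3. The Sting gt/gt levels were -3.45, -3.0 and -2.85 in the same order. The nearest mice of the 2 genotypes were replicate 1 of each, at -3.50 and -3.45. The log2 fold change had an interval of 0.21 to 1.48 (limma unadjusted p = 0.0164, adjusted p = 0.989), and Il4 was the 1 member called among these 6 arrays, beside 3.81% of all probes. On scan day 2 the WT levels were -3.31, -3.19, -3.11 and -3.0 in replicates 4 to 7. The Sting gt/gt levels were -2.98, -3.32, -3.17 and -2.87. These sets overlapped, and the interval of their difference was -0.22 to 0.35. The difference between the scan days in the genotype effect was -0.78 (SE 0.29, limma unadjusted p = 0.0191, adjusted p = 0.191), and the exact permutation test within scan days gave p = 0.136. That term was called for 1 of 8 members and for 17.7% of all probes. Without WT replicate 2, or without Sting gt/gt replicate 3, it was called for 0 of 8.

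Basophils and mast cells are other known sources of IL-4, and their markers were read beside it. All 9 tested markers had a positive log2 fold change, with a median of 0.23, and 0 of 9 passed the test over the 14 arrays. Of 14729 genes with a symbol, 9088 were positive too. In replicates 1-3 the median of the 9 was -0.05 and 0 of 9 were called. In replicates 4-7 it was 0.38 and 6 of 9 were called, beside 22.7% of all probes. With scan day as a block 1 of 9 was called, beside 7.32% of all probes. In the log2 table of the authors, described below, 1 of 9 was called, beside 7.73%. The list averaged -0.22 to 0.34 on the WT arrays and -0.54 to 0.68 on the Sting gt/gt arrays, and its part in the level of Il4 was not tested.

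Among the receptors, Il2ra ran from -2.05 to -1.42 in WT mice (median -1.58), and from -1.89 to -1.21 in the Sting gt/gt group (median -1.55). The groups overlapped, and the highest mouse was Sting gt/gt replicate 1. The mean was higher by 0.14 (SE 0.13, interval -0.14 to 0.41) in Sting gt/gt mice, within the SD of 0.23 of each group. Ctla4 ran from -4.71 to -4.17 in WT mice (median -4.34), and from -5.18 to -3.73 in the Sting gt/gt group (median -4.50). The Sting gt/gt mice were more spread, with an SD of 0.51 against 0.21 in WT mice, and held both the lowest and the highest of the 14. Of the 3 Sting gt/gt mice not well above background, 2 were of scan day 1. The mean differed by -0.13 (SE 0.20, interval -0.55 to 0.29). Icos ran from -0.25 to 0.49 in WT mice (median 0.20), and from -0.20 to 0.42 in the Sting gt/gt group (median 0.16). Its mean differed by -0.02 (SE 0.15, interval -0.34 to 0.29), and 3 of 7 Sting gt/gt mice lay above the WT median.

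Within scan days, no other member was called. In replicates 1-3 the log2 fold change of Tbx21 was -0.38 (interval -0.86 to 0.10) and that of Ctla4 was -0.37 (-0.87 to 0.13), both lower in Sting gt/gt mice. In replicates 4-7 they were 0.29 (-0.21 to 0.79) and 0.05 (-0.46 to 0.56), so both had opposite signs on the 2 days. The test of that difference gave an unadjusted p of 0.0650 for Tbx21 and 0.246 for Ctla4 (limma), and for Tbx21 an exact permutation p of 0.0671. Foxp3 was higher in Sting gt/gt mice in both sets, by 0.13 (-0.31 to 0.57) and by 0.37 (-0.03 to 0.77). Il2ra was likewise higher in both, by 0.21 and 0.09, and Gata3 and Ifng were lower in both, by differences of -0.13 and -0.06 for Gata3 and of -0.05 and -0.10 for Ifng. Icos had 0.11 in replicates 1-3 and -0.13 in replicates 4-7. In replicates 4-7, 0 of 8 members were called beside 22.7% of all probes.

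**Figure D2:**
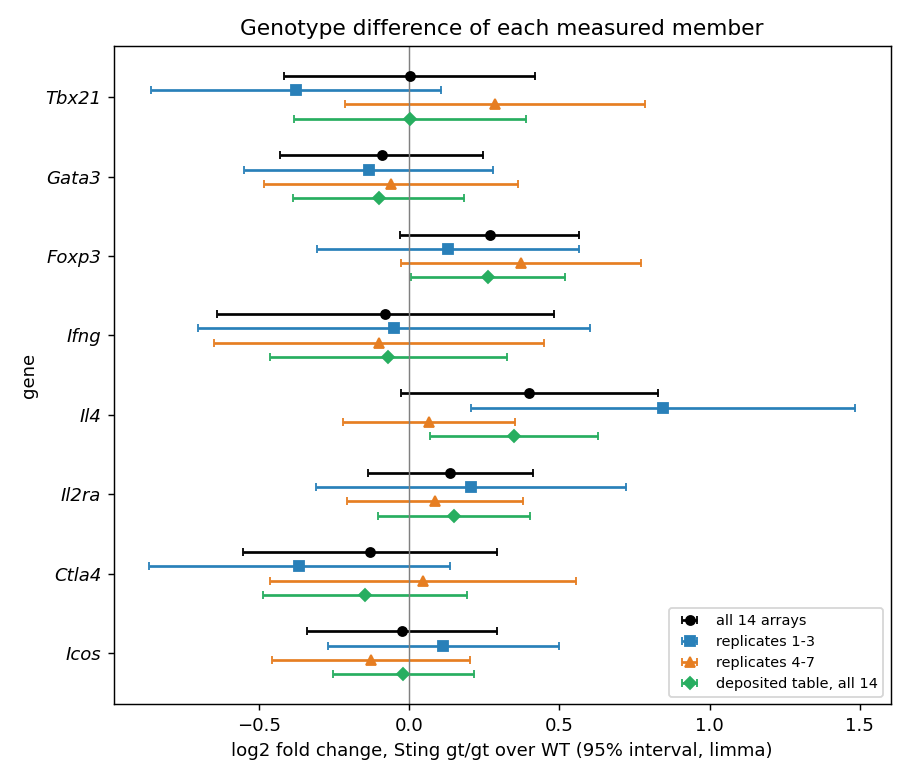
The log2 fold change of Sting gt/gt over WT (x axis) is given for the 8 tested members (y axis), with 95% intervals from limma, over all 14 arrays (black), replicates 1-3 (blue), replicates 4-7 (orange) and the deposited log2 table (green). All black intervals include 0, Il4 stands at 0.85 in replicates 1-3 and 0.07 in replicates 4-7, and the green intervals of Il4 and Foxp3 lie just above 0.

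Several members differed between the scan days. With genotype in the fit, Ifng was higher on scan day 2 by 0.72 (SE 0.19, limma adjusted p = 0.00879), and Icos by 0.38 (SE 0.11, adjusted p = 0.0156). Gata3, Il4 and Ctla4 had 0.33, 0.40 and 0.39, which passed only before adjustment. Tbx21, Il2ra and Foxp3 had 0.31, 0.13 and -0.14 and passed neither. This makes 5 of 8 members called before adjustment, beside 47.5% of all probes. The mice of the 2 scan days were different animals, so scan day and any difference in their handling cannot be told apart.

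The log2 table that the authors deposited gives the same 14 arrays without the shift between scan days. There, 0 probes differed between the days after adjustment and 1.33% differed before it (limma), although each of its columns correlated with the scanner signal of its array at 0.997 to 0.999. In it, 2 of 8 members were called between genotypes, beside 7.73% of all probes. Il4 was higher in Sting gt/gt mice by 0.35 (interval 0.07 to 0.63, unadjusted p = 0.0182, adjusted p = 0.588), with an exact permutation p of 0.0239 and 6 of 7 Sting gt/gt mice above the WT median. Foxp3 was higher by 0.26 (0.01 to 0.52, unadjusted p = 0.0461, adjusted p = 0.641), with an exact permutation p of 0.0565 and 7 of 7 above the WT median. Tbx21, Gata3, Ifng, Il2ra, Ctla4 and Icos kept differences of 0.00, -0.10, -0.07, 0.15, -0.15 and -0.02. The interaction of Il4 with scan day was -0.44 there and did not pass (unadjusted p = 0.107), beside 17.2% of all probes called for that term.

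The wider programmes were read from lists, which place the members among their pathway genes. Of the Th1 list, 0 of 19 tested genes passed the test either way (median log2 fold change 0.01), and of the Th2 list 0 of 8 (median 0.01). Of the Th17 list 0 of 12 passed (median -0.01), and of the Treg list 0 of 21 (median 0.02). Of the IL-2 receptor pathway 0 of 14 passed (median 0.03), and of the CD28 family and its ligands 0 of 13 (median -0.02). The Tfh list had 1 of 14 higher and 0 lower, with a median of -0.04. That 1 gene was Ascl2, a transcription factor that takes part in starting the Tfh programme, at -3.53 ± 0.15 in WT and -3.17 ± 0.29 in Sting gt/gt mice (SD, n = 7). Its log2 fold change was 0.36 (SE 0.13, limma unadjusted p = 0.0133, adjusted p = 1.0). Over all 14729 genes with a symbol, 2.90% passed and the median was 0.04. Without scaling that median was -0.01, and those of the Th1, Th2, Treg and IL-2 receptor lists were -0.05, -0.04, -0.04 and -0.03, so the sign of a list median turned with the scaling.

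Beside Il4, the Th2 genes ran from -0.24 (SE 0.19) for Il1rl1, the receptor of IL-33, to 0.22 (SE 0.21) for Gfi1, a transcriptional repressor. Beside Foxp3, the Treg genes ran from the same Il1rl1 to 0.19 (SE 0.16) for Tnfrsf9, which encodes 4-1BB. In the Th2 list Stat6, which carries the IL-4 signal, had a log2 fold change of -0.02 (SE 0.13) and Il4ra, the IL-4 receptor chain, had 0.04 (SE 0.11). In the Treg list Ikzf2, which encodes Helios, had 0.07 (SE 0.26), Tnfrsf18, which encodes GITR, had 0.11 (SE 0.11), and Tgfb1, a suppressive cytokine, had 0.07 (SE 0.10). None of these 8 genes passed the test, and they were singled out after their values were seen. Foxp3 had the highest log2 fold change of the 21 tested Treg genes.

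Most cytokines of effector T cells could not be read in these splenocytes. Il17a, Il17f, Il5, Il13, Il9, Il2 and the receptor genes Il23r and Ccr4 were well above background on 0 of 14 arrays, and Il21, Il22 and Il10 on 1 of 14. Cd40lg, the T cell ligand for CD40, was so on 1 of 14 and Tigit on 0 of 14. These genes were not tested. Ifng and Il4 were the cytokine genes of the members that every array measured.

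Markers of other cells moved as follows. The T cell list itself had 0 of 20 genes past the test, its median was -0.01 and its levels ran from 0.82 to 1.38 on the WT arrays and 0.96 to 1.28 on the Sting gt/gt arrays. The B cell list had 0 of 10 past the test. Its medians were -0.16 over all arrays, 0.21 in replicates 1-3 and -0.44 in replicates 4-7. In replicates 4-7, 6 of 10 were called, beside 22.7% of all probes. Neutrophil, macrophage and dendritic cell lists had 0 of 9, 0 of 10 and 0 of 10, with medians of 0.13, 0.03 and 0.03. Without scaling, the macrophage and dendritic cell medians were -0.03 and -0.02. The erythroid list had 2 of 9 lower, among them Tfrc, the transferrin receptor, by -0.52 (SE 0.24), and a list median of -0.30. Of the erythroid genes, 6 of 9 were called in replicates 4-7. The part of these cells in the levels of the members was not tested.

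**Figure D3:**
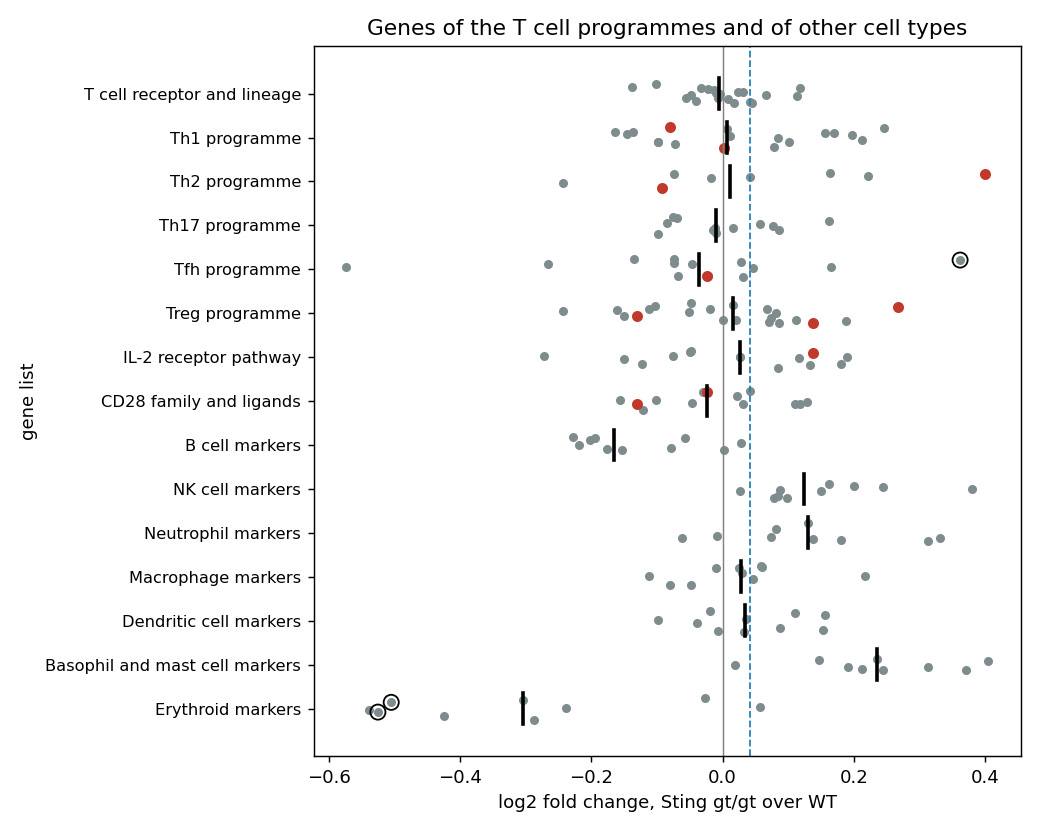
Each point is 1 gene of a list (y axis) with its log2 fold change of Sting gt/gt over WT (x axis), members in red and other genes in grey. Rings mark an unadjusted p under 0.05, vertical bars the list median and the dashed line the median of all genes with a symbol, 0.04. The T cell programme lists have medians between -0.04 and 0.03, those above 0 being negative without scaling, and Ascl2 is the ringed gene among them.

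From mouse to mouse, Tbx21, Gata3, Foxp3 and Ctla4 varied together, with Il4 less close to them. After the mean of each genotype on each scan day was subtracted, 23 of the 28 pairs of members had a positive Pearson r over the 14 arrays, with a median of 0.34, and 8 pairs had r over 0.5. Those are 82.1% and 28.6% of the pairs, beside 50.2% and 15.0% of all pairs of the 14722 genes, whose median r was 0.003. Tbx21 and Gata3, the Th1 and Th2 factors, had the highest, with r = 0.87 and Spearman rho = 0.82. The pair had r = 0.90 on scan day 1, 0.85 on scan day 2 and 0.87 in the deposited table, and r = 0.77 without the 2 mice farthest from the median of Tbx21. Ctla4 and Icos had r = 0.79 (rho = 0.80), Tbx21 and Foxp3 had 0.76 (0.82), and Foxp3 and Ctla4, which Treg cells express together, had 0.74 (0.69). All 6 pairs among Tbx21, Gata3, Foxp3 and Ctla4, a set grouped by these same values, lay between 0.55 and 0.87. The lowest of them, Gata3 and Foxp3, had r = 0.35 on scan day 1, 0.64 on scan day 2 and 0.42 in the deposited table.

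Il4 and Il2ra stood outside this set. Il4 had r of -0.05 with Tbx21 and -0.03 with Gata3, its own lineage factor, and its highest was 0.50 with Ifng. Il2ra had 0.40 with Gata3, 0.25 with Tbx21, 0.13 with Foxp3 and -0.06 with Ctla4. The lowest of all pairs was that of Il4 and Il2ra at -0.43. That pair had -0.68 on scan day 1, 0.23 on scan day 2, and 0.05 without the 2 mice farthest from the median of Il4. The members also differed in how closely they followed the T cell list, with a median r over its genes of 0.67 for Gata3, 0.56 for Tbx21, 0.52 for Foxp3, 0.50 for Ctla4, 0.34 for Icos, 0.32 for Ifng, 0.14 for Il4 and 0.12 for Il2ra. All these values share the array, its scaling and the cell makeup of each spleen, and are given as a description of 14 arrays.

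**Figure D4:**
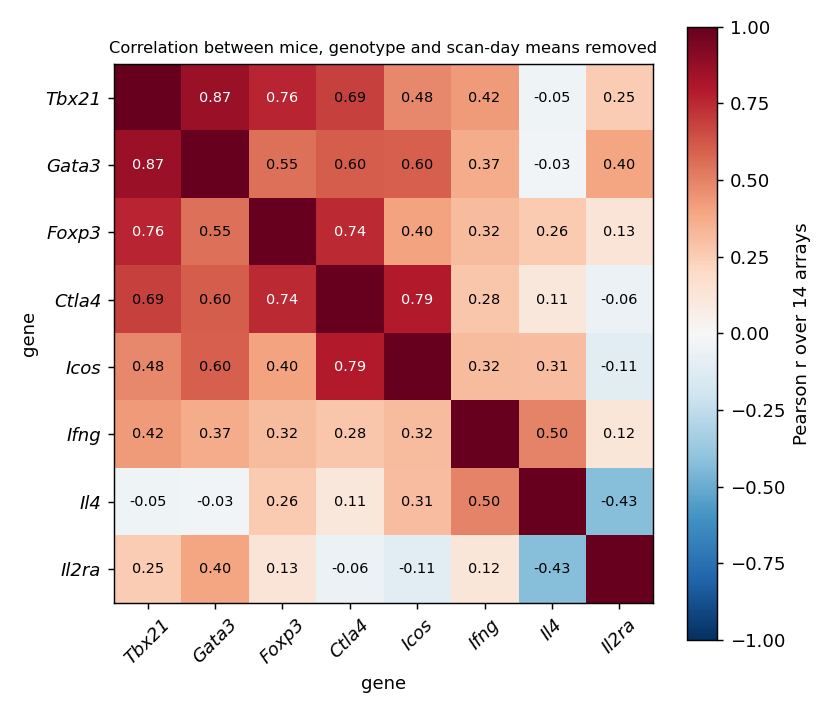
Pearson r between members (both axes) over the 14 arrays after genotype and scan-day means were subtracted, with red for positive and blue for negative values and r printed in each cell. Tbx21, Gata3, Foxp3, Ctla4 and Icos form the reddest block, with Tbx21 and Gata3 at 0.87, and the Il4 and Il2ra cell is the bluest at -0.43.

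Among 14722 genes, those whose levels followed each member most closely were found in the same way, by Pearson r over the 14 arrays. Tbx21 was followed by Klf2, a factor of resting and recirculating lymphocytes, at r = 0.96, then Jkamp and Gprc5c at 0.96. Gata3 was followed by Abhd6, Cxxc5 and Hap1 at 0.97 each. Ifng was followed by Cxcr6, a chemokine receptor of effector T and NK cells, at 0.93, then Dpy19l3 and Map7d3 at 0.89. Icos was followed by Map2 at 0.91, Fam222a at 0.89 and Ikzf3, a lymphoid zinc finger factor, at 0.88. Foxp3 had Pjvk, Taf7l and Col11a2 at 0.90, 0.89 and 0.86, and Ctla4 had Tmem245, Npas4 and Chst1 at 0.92, 0.91 and 0.91. Il4 had Gm38457, Btbd16 and Ccdc144b at 0.90, 0.87 and 0.86, and Il2ra had Tfpi, Wwtr1 and Maml2 at 0.90, 0.89 and 0.88. No member was among the 3 nearest genes of another. Each is the highest of 14722 values over 14 arrays, and the order is a description.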

How the data were processed

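RNA of splenocytes from 14 mice was labelled with 1 dye (100 ng each) and hybridised to 14 Agilent arrays. Per the labels, the authors used Agilent Feature Extraction (11.0.1.1), whose processed intensity is corrected for background spot by spot. They also deposited a table of log2 values whose normalization is not given in the sources used here.

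Here, log2 processed intensity minus the 75th percentile of each array was fitted by limma 3.58.1 (lmFit and eBayes, R 4.3.3) with no covariates, over the 31766 probes that were above background on 7 or more of the 14 arrays. Outlier spots were left out (13 values of tested probes) and spots of a probe averaged. Probes were named by accession through RefSeq, which matched 32994 of 56605 (58.3%). The array grid follows mm9 and the names and promoters GRCm38.p6, so only names were joined. The threshold was an unadjusted p under 0.05, with Benjamini-Hochberg adjustment over all probes. Exact permutation tests over samples were two-sided. Tables and figures used Python 3.11.15, pandas 2.3.3, numpy 2.4.6, scipy 1.17.1 and matplotlib 3.10.9. The fits were also run on simulated arrays with independent noise for each probe and no slide effect. That run says nothing of how slides act on the fits. The number of arrays limits the precision.

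The members and lists were chosen with earlier results of these data known. Genes named are the members, up to 3 genes per list and direction with the lowest p, the 3 genes closest to each member, and others said to be chosen after their values were seen. A gene that this rule names is not reported here. Scan day and slide came from the scanner files. Both groups carry replicate numbers 1 to 7. Deviations of same-numbered arrays from their group means correlated at 0.15 to 0.52, and at -0.40 to 0.28 once scan-day means were removed. What makes same-numbered arrays alike was not tested. Alternatives covered scaling, normexp (offset 50, on median signals), the deposited table, filters, tests, blocks, weights and arrays left out. The scalings of the list medians were added after seeing the data.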

Additional observations from a re-analysis of the deposited data

Results flagged for a closer look

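The genotype difference of Il4 differed between the 2 scan days by the interaction term and not by the exact permutation test. It was 0.85 in replicates 1-3 and 0.07 in replicates 4-7 on the log2 scale, Sting gt/gt over WT, and the interaction term was -0.78 (limma unadjusted p = 0.0191, adjusted p = 0.191). An exact permutation within scan days gave p = 0.136. The interaction term was called for 1 of 8 members, beside 17.7% of all probes. With normexp background correction the Il4 term was -0.20 (limma unadjusted p = 0.276) and in the deposited table -0.44 (limma unadjusted p = 0.107), and neither passed. With median centring it was -0.66 (limma unadjusted p = 0.0348). In replicates 4-7 the genotypes lay on separate slides and cannot be told apart from them. No sample of a member stood far from the others of its group by Dixon's test.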

How the results depend on the processing

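The count of members called between genotypes was 0 over all 14 arrays and stayed 0 under median centring, quantile normalization, no scaling, normexp, both filters, flagged spots kept, 1 probe per gene, the methods' t-test, the Mann-Whitney test and array weights. It was 2 in the deposited table (Il4 and Foxp3) and 1 (Il4) with scan day as a block, with slide as a fixed block (0.68), with slide as a random block (0.50) and in replicates 1-3 alone. Leaving out each array in turn gave 0 to 1, with Il4 called without WT replicate 6 or 7 or Sting gt/gt replicate 1 (0.46 to 0.48), and Foxp3 without WT replicate 1 or Sting gt/gt replicate 5. With the replicate block, 0 members were called, the calls over all probes rose from 1091 to 1825, and the call of no member changed. The count of members whose difference differed between scan days was 1 (Il4), 2 with median centring, 0 in the deposited table and 0 to 2 with arrays left out in turn, with 2 called without WT replicate 3 or 5 or Sting gt/gt replicate 5 and 0 without WT replicate 2 or Sting gt/gt replicate 3. It was 1 with normexp, but there the member was Tbx21 (0.55) and not Il4. Foxp3, Il4, Il2ra and Gata3 kept their direction under every setting run. Tbx21, at 0.00, was -0.0102 with median centring, -0.00697 with quantile normalization, -0.0524 with no scaling, -0.45 with slide as a fixed block, -0.21 as a random block and -0.38 in replicates 1-3. Ctla4 was 0.0364 with normexp and 0.0460 in replicates 4-7, and Icos was 0.11 in replicates 1-3. With arrays left out in turn, Tbx21 ranged from -0.14 to 0.10, Icos from -0.0877 to 0.0354 and Ifng from -0.22 to 0.0730. Gata3 (-0.09) ranged from -0.19 without Sting gt/gt replicate 7 to -0.0282 without WT replicate 4, Il2ra (0.14) from 0.0775 without WT replicate 3 to 0.19 without Sting gt/gt replicate 2, and Ctla4 (-0.13) from -0.27 without Sting gt/gt replicate 6 to -0.0255 without Sting gt/gt replicate 1. With slide as a fixed block they were -0.24, 0.33 and -0.55, and for Ctla4 the random block gave -0.32 and array weights gave -0.0111. Of the 4 scalings of the list medians tried after seeing the data, leaving the arrays unscaled turned those of Th1, Th2, Treg, IL-2 receptor pathway, macrophages and dendritic cells below 0. Median centring and quantile normalization turned Th1 (-0.00475 and -0.000631) and Th2 (-0.000134 and -0.00593), and the deposited table turned Th2 (-0.00122) and macrophages (-0.0189). Over all probes, the calls were 1091, and 2325 with scan day as a block, 2455 in the deposited table, 591 with slide as a random block, 5728 with array weights and 7209 in replicates 4-7. The slide as a fixed block rests on 5 arrays of 2 slides. Signals near background, as for Ctla4, limit what could be seen, and the cause of each change of setting was not tested.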
